A study of Mus musculus with 29 samples.

Results

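Acetylation of histone H3 at lysine 27 (H3K27ac) was mapped by chromatin immunoprecipitation sequencing in mouse blood cell progenitors and in classical type 1 dendritic cells (cDC1), and the regions described here carried the mark in the progenitors and were not called in cDC1. The H3K27ac regions of 14 libraries were merged wherever they shared a base, which gave 112928 merged regions. A region was selected when it was called in both libraries of each of 4 progenitor groups and in neither cDC1 library. The rule selected 1594 regions (1.41% of all merged regions), which together spanned 5.895 Mb. The regions were thus chosen by the calls in those 10 libraries. The presence and absence of calls there is given as a description without a test, while width differences among the called progenitor groups, whose direction the rule did not set, were tested.

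All mice were on the C57BL/6 background, and each group had 2 libraries. The 4 groups used by the rule came from bone marrow: wild-type LSK cells (Lin- Sca1+ CD117+), and lymphoid-primed multipotent progenitors (LMPP, sorted as CD135+ CD150- IL-7R- LSK cells), granulocyte-monocyte progenitors (GMP, CD16/32+ CD115- cells without Sca-1, IL-7R or lineage markers and with CD117) and monocyte-dendritic cell progenitors (MDP, CD115+ cells that otherwise share those 4 criteria) from mice lacking the +56 kb enhancer of Irf8 (d+56kb). The wild-type cDC1 came from the spleen and were sorted as F4/80- XCR1+ CD172a- cells with high MHC class II and CD11c. A further pair of LMPP groups, wild-type and IRF8-deficient (IRF8KO), was not used by the rule. IRF8 and CEBPA peaks were from wild-type spleen cDC1 (Thy1.2- B220- CD49b- CD8a+) and wild-type bone marrow monocytes (CD117- CD135- Ly6G- CD115+) enriched with magnetic beads alone. The labels speak of biological duplicates without saying whether they came from separate animals, so p-values may rest on technical spread alone. Organ differs between the progenitors and cDC1, genotype differs between LSK and the d+56kb groups, and neither can be told apart from cell type in the rule. Wild-type GMP and MDP were not analysed here.

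H3K27ac marks active enhancers and promoters, and blocks of it commonly shrink or vanish at stem and progenitor genes when blood cells mature. CEBPA drives granulocyte and monocyte fate and binds enhancers in myeloid progenitors and monocytes. IRF8 drives the monocyte and cDC1 fates, restrains the neutrophil fate, and its gene depends in part on a distal enhancer that is missing in the d+56kb mice.

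Several of the regions covered starts of genes for neutrophil granule proteins, and others covered starts at which CEBPA was bound in monocytes, so the DNA before these starts is shown first. All sequences are from RefSeq (GRCm38.p6), run 5' to 3' on the gene's strand, and end at the base before the start. In the first 4 the capitals mark the letters GGAAGT, the core that ETS factors such as PU.1 recognise, on either strand. Mpo encodes myeloperoxidase (chr11:87793534-87793783, plus strand), Prtn3 proteinase 3 (chr10:79879417-79879666, plus strand), Elane neutrophil elastase (chr10:79886062-79886311, plus strand) and Ctsg cathepsin G (chr14:56102575-56102824, minus strand).
Mpo: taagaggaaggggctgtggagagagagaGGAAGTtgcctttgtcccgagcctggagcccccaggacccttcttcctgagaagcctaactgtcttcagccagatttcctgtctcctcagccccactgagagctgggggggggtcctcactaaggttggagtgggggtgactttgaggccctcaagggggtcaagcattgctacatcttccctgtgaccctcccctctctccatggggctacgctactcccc
Prtn3: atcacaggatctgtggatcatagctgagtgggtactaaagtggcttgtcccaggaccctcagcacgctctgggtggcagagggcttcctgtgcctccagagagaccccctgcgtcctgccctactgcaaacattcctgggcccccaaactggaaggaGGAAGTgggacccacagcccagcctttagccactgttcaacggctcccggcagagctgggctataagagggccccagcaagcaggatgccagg
Elane: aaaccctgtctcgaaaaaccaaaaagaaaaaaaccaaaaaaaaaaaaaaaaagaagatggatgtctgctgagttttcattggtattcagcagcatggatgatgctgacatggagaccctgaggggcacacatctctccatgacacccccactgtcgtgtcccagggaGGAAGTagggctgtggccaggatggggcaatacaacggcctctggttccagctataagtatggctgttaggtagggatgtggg
Ctsg: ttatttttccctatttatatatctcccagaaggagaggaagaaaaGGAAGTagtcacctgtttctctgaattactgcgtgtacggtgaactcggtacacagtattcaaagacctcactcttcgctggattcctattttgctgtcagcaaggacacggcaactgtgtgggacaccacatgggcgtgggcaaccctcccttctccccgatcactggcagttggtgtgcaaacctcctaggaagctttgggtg
In the next 3 the capitals mark the CEBP letters TTGCNNAA on either strand, and each 300-base promoter window held a monocyte CEBPA peak. Mgst1 encodes a microsomal glutathione transferase (chr6:138140277-138140526, plus strand), Clec4e a C-type lectin receptor of myeloid cells (chr6:123289872-123290121, minus strand) and Ptgs2 the prostaglandin synthase COX-2 (chr1:150099781-150100030, plus strand).
Mgst1: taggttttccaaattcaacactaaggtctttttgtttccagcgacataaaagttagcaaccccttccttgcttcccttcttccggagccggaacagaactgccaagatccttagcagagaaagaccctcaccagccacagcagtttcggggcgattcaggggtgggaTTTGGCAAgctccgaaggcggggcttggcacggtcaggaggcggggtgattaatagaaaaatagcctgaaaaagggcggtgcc
Clec4e: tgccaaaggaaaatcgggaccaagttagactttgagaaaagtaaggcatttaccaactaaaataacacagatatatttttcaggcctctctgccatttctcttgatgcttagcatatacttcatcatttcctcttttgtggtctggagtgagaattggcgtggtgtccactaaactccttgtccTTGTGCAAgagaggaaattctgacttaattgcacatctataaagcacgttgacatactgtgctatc
Ptgs2: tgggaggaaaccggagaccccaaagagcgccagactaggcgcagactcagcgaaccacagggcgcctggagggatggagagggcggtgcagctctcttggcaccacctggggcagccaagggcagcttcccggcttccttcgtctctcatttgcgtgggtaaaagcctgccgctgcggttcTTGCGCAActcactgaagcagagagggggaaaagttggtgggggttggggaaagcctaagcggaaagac
These 3 genes, and the GGAAGT letters for the granule genes, were chosen after their values were seen.

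RefSeq windows running from 250 bases before to 50 bases after a start were listed for 246 starts of 201 genes inside the regions. A CEBPA peak found in both monocyte libraries overlapped 37 of these windows, and 12 of the 37 held the CEBP letters. Of the 209 windows without such a peak, 16 held them. Over all 246 windows the letters were present in 11.4%, against 7.33% of 7586 windows in regions kept in cDC1 and 10.2% of 21263 windows of all coding genes. GGAAGT stood in 28.0% of the windows, in 32.5% of those in kept regions and in 24.8% of all. The GATA letters AGATAA stood in 9.76%, against 5.08% in kept regions and 9.65% of all windows. RUNX letters (TGTGGT) stood in 17.9% of the windows and in 11.7% of those in kept regions. The interferon response motif stood in 4.47%, 2.98% and 3.35% of the same 3 sets. The ETS-IRF composite motif, which can overlap it, stood in 1.63%, 2.23% and 2.53%. Both strands were searched for every motif. These matches are a description of letters and not of binding.

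Among 11486 merged regions called in all 8 progenitor libraries of the rule, 8814 (76.7%) were also called in both cDC1 libraries and are the kept regions used below for comparison. The 1594 regions were 13.9%. Just outside the rule lay 1041 regions called in the first cDC1 library alone, where their median width was 759 bases, and 37 called in the second alone, with a median at the minimum width, just over 500 bases. A further 992 regions lacked a call in 1 of the 8 progenitor libraries and in cDC1, and 339 of those missed it in the first d+56kb MDP library. Just inside the rule, 583 of the 1594 regions (36.6%) were at the minimum width in at least 1 progenitor library. Leaving out the first cDC1 library gave 2635 regions, and requiring progenitor calls wider than the minimum gave 972.

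Depth and the share of tags in regions differed between libraries, and the second cDC1 library, the deeper, called fewer regions (24105 against 27209). The number of tags, in units of 1e6 (M), was 7.187 M to 8.297 M in LSK, 2.985 M to 3.675 M in d+56kb LMPP, 2.614 M to 3.031 M in GMP, 1.833 M to 3.341 M in MDP and 5.422 M to 10.875 M in cDC1. Of the tags of the second cDC1 library 16.36% lay in its regions, against 52.34% in the first. The wild-type LMPP libraries had 2.001 M to 3.647 M tags and the IRF8KO LMPP libraries 1.258 M to 1.47 M. In both of these groups fewer of the tags lay in regions (15.03% to 23.74% and 17.82% to 18.64%) than in the d+56kb LMPP libraries (36.8% and 38.07%). The part of depth in the results was not tested. The 7 cDC1 marker loci examined (Xcr1, Clec9a, Batf3, Cadm1, Tlr3, Itgae and Zbtb46) had more called H3K27ac in both cDC1 libraries than in any progenitor library. Genes of CD117 and Sca-1, on which progenitors but not these cDC1 were sorted, separated the groups less well. Kit, which encodes CD117, had 22.337 and 17.758 kb in cDC1 against 12.769 and 17.377 kb in GMP and 7.226 and 10.006 kb in MDP. Ly6a, which encodes Sca-1, had 4.396 and 2.122 kb in LSK and 2.597 and 2.053 kb in cDC1. In the cells sorted without Sca-1 it had 2.38 and 2.662 kb (GMP) and 1.863 and 2.563 kb (MDP). Called H3K27ac at Cadm1, which encodes an adhesion molecule of cDC1, summed to 90.846 and 68.818 kb in cDC1 and to at most 4.494 kb in any progenitor library, and at Meis1, a stem cell transcription factor, to 60.505 and 45.053 kb in LSK and 2.501 and 1.436 kb in cDC1.

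The regions were mainly distal. Of 1552 regions on chromosomes with listed starts, 193 held the start of a coding gene (12.4%, 95% Wilson interval 10.9 to 14.2), against 65.8% of the kept regions and 7.96% of all merged regions. Another 731 (47.1%) lay within a gene's span and 628 (40.5%) outside all spans. The annotation gave gene spans and starts but no exons, so exon and intron could not be told apart, and the 42 regions on chromosome 18 had no listed start. The intervals cover counting error only, and neighbouring regions are not independent. Without a start inside, the median distance from the region's midpoint to the nearest start was 37.68 kb, close to the 33.87 kb of kept regions of that kind. The nearest cDC1 region lay at a median of 17.61 kb. For 565 regions (35.4%) it lay within 10 kb and for 144 (9.03%) beyond 100 kb. They made up between 8.46% (chromosome X) and 17.8% (chromosome 13) of the regions called in all 8 progenitor libraries of a chromosome. RefSeq miRNA hairpins lay in 5 of the regions.

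Merged widths ran from 610 to 35030 bases with a median of 3076, against 2875 for kept regions. The median called width was 2155.5 and 1872.5 bases in the LSK libraries, 1697.5 and 1529.5 in d+56kb LMPP, 1652 and 1668 in GMP and 1242 and 1690.5 in MDP. The LSK libraries, the deepest of these, were the widest, and the first MDP library, the shallowest, the narrowest. Kept regions had 2076 and 1932.5 bases in LSK, 1682 and 1591 in d+56kb LMPP, 1779 and 1786 in GMP and 1593 and 1862 in MDP. They were thus also widest in LSK, but narrowed less in the first MDP library.

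**Figure D1:**
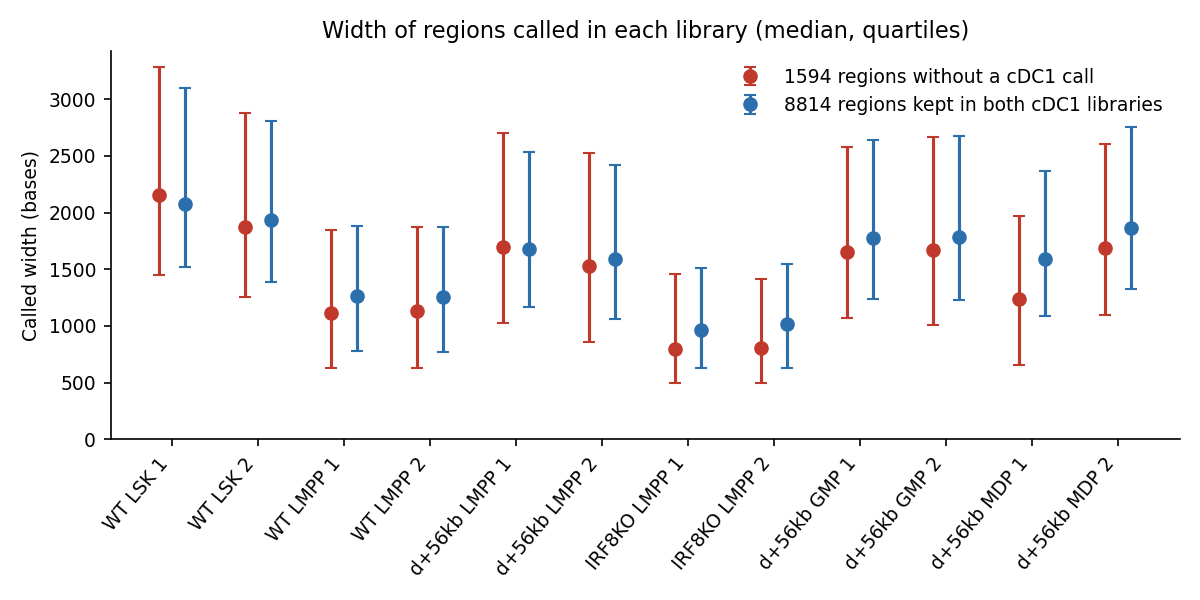
Called width in bases (y axis, median with quartiles) of the 1594 regions without a cDC1 call and of the 8814 kept regions, in each of the 12 progenitor libraries. The 2 sets lie close together in LSK and d+56kb LMPP, and both are narrowest in the IRF8KO LMPP libraries.

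The wild-type and IRF8KO LMPP libraries, which the rule did not use, called fewer of these regions than of the kept ones. Wild-type LMPP called 72.0% and 69.5% of the 1594 regions in the first and second library, and 58.3% (55.8 to 60.7) in both. Of the kept regions 85.2% were called in both. IRF8KO LMPP called 54.0% and 56.9%, and 39.6% in both, against 68.4% of the kept regions. The share rose with width in LSK, by which the regions were divided into 4 classes of nearly equal number. In the narrowest class, 17.8% were called in both wild-type LMPP libraries and 7.52% in both IRF8KO libraries. In the widest class the shares were 92.5% and 79.4%. Kept regions of the same width classes had 58.9% and 35.5% in the narrowest class and 97.5% and 88.3% in the widest. Their shares were higher in each class, a difference that was not tested, as regions are not replicates. Requiring progenitor calls wider than the minimum raised the shares called in both libraries to 72.5% for wild type and 50.6% for IRF8KO.

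**Figure D2:**
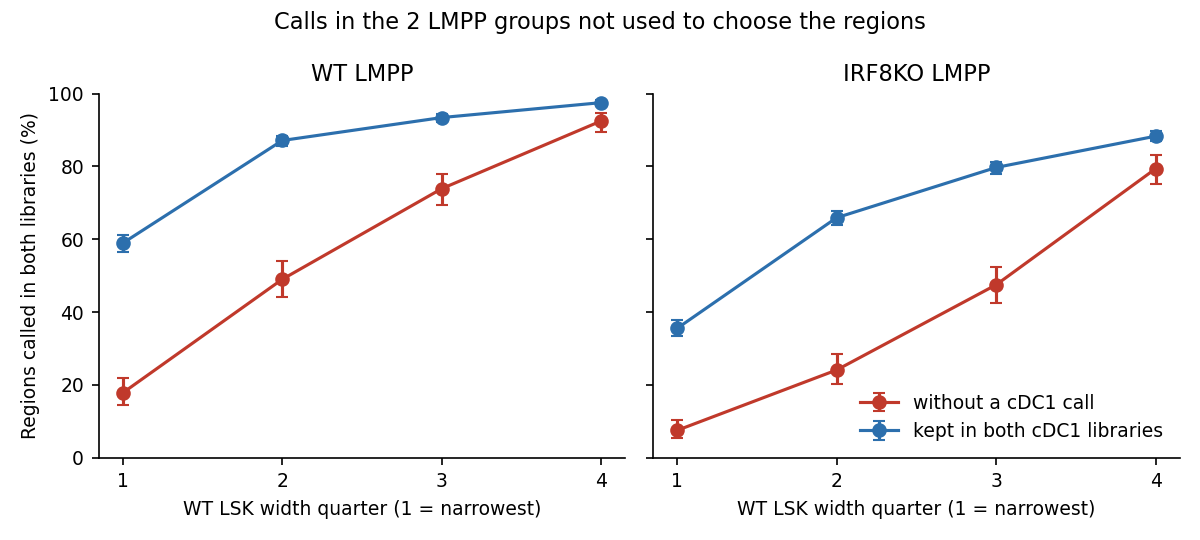
Percentage of regions called in both libraries (y axis, Wilson 95% interval) of wild-type LMPP (left) and IRF8KO LMPP (right), by class of width in LSK (x axis), for regions without a cDC1 call and for kept regions. The first set runs from 17.8% to 92.5% in wild-type LMPP and from 7.52% to 79.4% in IRF8KO LMPP, below the kept regions in each class.

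In all, 556 regions were called in all 4 of these LMPP libraries, 125 in both wild-type and no IRF8KO library, 22 in both IRF8KO and no wild-type library, and 162 in none. The 5 widest regions called in none lay nearest to Tagap, Runx2, Znrf1, Id1 and Map3k20. Id1 encodes an inhibitor of basic helix-loop-helix factors, and the region 3.2 kb from it covered 1573 and 1927 bases in LSK, 2202 and 1053 in d+56kb LMPP, 3546 and 3448 in GMP and 3402 and 4104 in MDP. The region nearest to Tagap, which encodes a GTPase-activating protein, held 3 CEBPA peaks and covered 2345 and 641 bases in d+56kb LMPP against 8064 and 5301 in GMP. Its calls in both d+56kb LMPP libraries were required by the rule, and it was named for lacking calls in the other LMPP groups. The contrast between these groups therefore follows from the choice and is not a result.

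Over all of these regions monocyte CEBPA peaks were about as frequent as in the kept ones, and cDC1 IRF8 peaks were rarer. A CEBPA peak found in both monocyte libraries overlapped 568 of the 1594 regions (35.6%, 33.3 to 38.0), 33.5% of kept regions and 9.23% of all merged regions. Most merged regions are narrow, and per Mb the 3 sets held 109, 107 and 85.4 CEBPA peaks. An IRF8 peak found in both cDC1 libraries overlapped 178 regions (11.2%, 9.71 to 12.8), 28.6% of kept regions and 9.81% of all. Per Mb there were 30.4 such peaks, fewer than the 97.6 in kept regions and the 93.9 in all merged regions. A monocyte IRF8 peak overlapped 81 (5.08%), 9.2% of kept regions and 2.55% of all, or 13.9, 26.2 and 22.2 per Mb. No region overlapped a CEBPA peak in either cDC1 library, where 166 and 72 peaks were called in all, which leaves an upper Wilson limit of 0.24%. Of all merged regions only 5 (0.00443%) and 27 (0.0239%) overlapped such a peak in the first and second library. Both shares lie below that limit, so nothing is read from the absence. Regions chosen for lacking H3K27ac in cDC1 were compared here with IRF8 binding in the same cell type, so the IRF8 share in cDC1 is not independent of the choice.

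The lower share of cDC1 IRF8 peaks was seen both with and without a gene start inside, while for CEBPA and monocyte IRF8 peaks the comparison with kept regions differed by place, a difference that was not tested. Without a start inside, CEBPA peaks were in 36.7% (34.2 to 39.3) of these regions and 42.2% (40.4 to 44.0) of the kept ones. Such intervals cover counting error over regions only. In the same regions cDC1 IRF8 peaks were in 11.7% and 41.8%, and monocyte IRF8 peaks in 70 of 1359 and 440 of 2932. With a start inside, CEBPA peaks were in 30.1% and 29.2%, cDC1 IRF8 peaks in 7.25% and 21.6%, and monocyte IRF8 peaks in 5.18% (2.84 to 9.27) and 6.2% (5.6 to 6.86), whose intervals overlapped. Of the 1594 regions 474 (29.7%) held CEBPA peaks alone, 72 cDC1 IRF8 peaks alone, 27 all 3 kinds and 915 (57.4%) none. Counting a peak of either library raised the cDC1 IRF8 share to 19.3% and the monocyte IRF8 share to 9.66%. The second monocyte IRF8 library alone gave 8.47%.

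**Figure D3:**
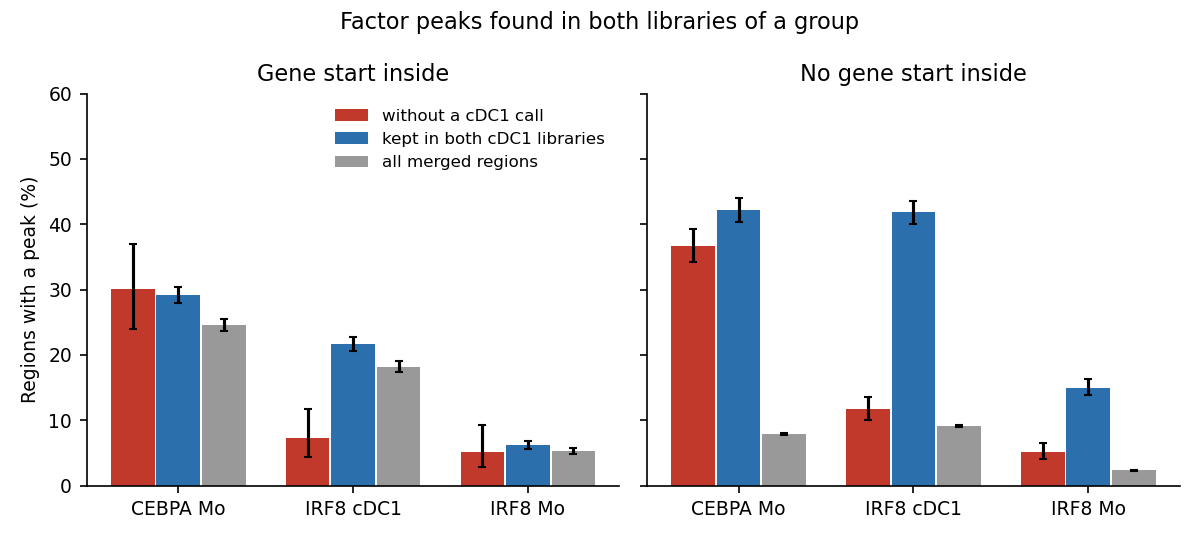
Percentage of regions (y axis, Wilson 95% interval) with a monocyte CEBPA, cDC1 IRF8 or monocyte IRF8 peak found in both libraries, with (left) and without (right) a gene start inside. The regions without a cDC1 call reach 36.7% for CEBPA and 11.7% for cDC1 IRF8 outside starts, where kept regions reach 42.2% and 41.8%.

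The region with the most CEBPA peaks lay inside Ccdc88c, which encodes a regulator of Wnt signalling, and held 4. It covered 3562 and 3003 bases in LSK, 3026 and 1308 in d+56kb LMPP, 10221 and 8934 in GMP and 7106 and 8114 in MDP. All 4 GMP and MDP values exceeded all LSK and d+56kb LMPP values. Regions with 3 CEBPA peaks lay in Chdh (choline dehydrogenase), in Ipo11 (a nuclear import receptor), near Tagap, and 106.5 kb from Irf2bp2, an IRF2-binding corepressor. Rfx8, an RFX-family gene, held the region with the most cDC1 IRF8 peaks, namely 2. That region had no CEBPA peak and covered 5335 and 3769 bases in LSK, the minimum in each GMP library and the minimum and 1866 in MDP.

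The genes with these regions were then read by their roles. A region was given to the coding gene with the nearest span within 100 kb of its midpoint, which placed 1499 regions at 1189 genes. At 288 of these genes no cDC1 region was called at all, and 586 also had a kept region. Pde4d, a cAMP phosphodiesterase gene, had 7 regions, Runx2 and Ly86 6 each. Runx2 is a RUNX-family transcription factor active in plasmacytoid dendritic cells, and Ly86 encodes MD-1, a partner of the RP105 receptor. Gas7, with 4 regions and no cDC1 call, had 3 regions with a CEBPA peak. Its summed H3K27ac was 9.746 and 5.529 kb in LSK, 12.949 and 15.704 kb in GMP and 19.595 and 24.401 kb in MDP.

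Stem cell and multipotent progenitor genes had the highest share among the lists. Of 38 genes of this list with any merged region, 12 had at least 1 of these regions (31.6%), against 6.9% of all 17228 genes with a merged region. A kept region was present at 42.1% of the list and 42.4% of all those genes. Granule and neutrophil genes had 5 of 18 (27.8%), monocyte and macrophage genes 5 of 20, myeloid progenitor factors 4 of 19, lymphoid priming genes 4 of 20 and cell cycle genes 4 of 18. B cell, plasmacytoid and mast cell lists had 2 of 11 each. The lists of cDC1, erythroid, T and NK cell, and housekeeping genes had 1 gene each, of 18, 17, 12 and 13, and the pan-dendritic list 0 of 17. The single cDC1-list gene was Id2, an HLH inhibitor, whose region lay 69239 bases from the gene and 378 bases from a cDC1 region. The shares are a description and were not tested for enrichment.

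Erg, an ETS transcription factor needed by blood stem cells, had the widest region of all (chr16:95425948-95460977, 35030 bases), which held its start. It covered 32607 and 30836 bases in LSK, 23750 and 22280 in wild-type LMPP, 30092 and 30367 in d+56kb LMPP, 20241 and 18148 in IRF8KO LMPP, 28109 and 29623 in GMP and 26675 and 29928 in MDP. The block thus stayed broad in every progenitor group, and no base of it was called in cDC1. It held 1 IRF8 peak in cDC1 and 1 in monocytes and no CEBPA peak. Adgrg1, the adhesion receptor GPR56 of stem cells, had 3 regions over 49128 bases and no cDC1 region at its locus. The widest of them covered 26912 and 25059 bases in LSK, 16306 and 11558 in GMP and 2297 and 4723 in MDP. Adgrg3 beside it covered 12837 and 11404 in LSK and 9764 and 11386 in MDP.

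Some neighbouring regions on chromosome 17 lay over 100 kb from any coding gene. The region chr17:83968825-83995336 lay 133.1 kb from Haao, the nearest coding gene, and covered 26089 and 25683 bases in LSK, 14474 and 14153 in GMP and 15566 and 14653 in MDP. Its neighbour chr17:83953124-83966822 covered 13039 and 12429 in LSK and 5591 and 4953 in MDP. Neither of these held an IRF8 or CEBPA peak. On the other side of the first lay chr17:83995754-84008992, which covered 12218 and 12927 bases in LSK and 1002 and 2894 in MDP.

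Widths among progenitor groups were compared with limma on log2(scaled bases + 500), over 40627 regions covered in at least 2 libraries and with p-values adjusted over all of them by the Benjamini-Hochberg method. Each library was scaled to the mean total covered length, differences are given ± limma's standard error, and all 1594 regions entered the tests. Since each had to be called in every library of the 3 d+56kb groups, a region could narrow but neither appear nor disappear there. The regions tested as a whole carry no such requirement, so in the 3 comparisons of d+56kb groups their share is printed as the background and nothing is read from it. The kept regions meet the same requirement.

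GMP and d+56kb LMPP share the genotype and differ in cell type. Of the 1594 regions 104 were wider in GMP (6.52%) and 136 narrower (8.53%), against a background of 11.6% and 7.06% of all regions tested. Of the kept regions 3.18% were wider and 3.93% narrower. The median difference was -0.05. Leaving out 1 library gave 84 wider without the first LMPP library, 62 without the second, 51 without the first GMP library and 53 without the second. The narrower counts in the same order were 89, 82, 79 and 76. Here the lone library was assumed to vary like the other groups. Without the filter on covered libraries 69 were wider, and a fit on the 4 libraries alone gave 162 wider and 211 narrower.

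Among regions with a monocyte CEBPA peak more widened than narrowed, and among those without one more narrowed than widened. With a peak, 71 of 568 were wider in GMP (12.5%, background 11.6%) and 29 narrower (5.11%, background 7.06%). Without one, 33 of 1026 were wider (3.22%) and 107 narrower (10.4%). The median difference was 0.17 with a peak and -0.14 without. In LSK the called widths of the 2 sets were close, with medians of 2161.5 and 1900 bases with a peak and 2140.5 and 1858.5 without. In GMP they were 2141 and 2211 with a peak against 1479 and 1450.5 without. Kept regions showed the same order: 6.7% wider and 4.77% narrower with a peak, and 1.4% and 3.5% without. The pattern was therefore not particular to regions without a cDC1 call, and the difference between the sets was not tested. Leaving out any 1 of the 4 libraries lowered the count wider with a peak to between 34 and 52, still above the 16 to 18 narrower, and left 17 to 32 wider and 60 to 71 narrower without a peak.

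**Figure D4:**
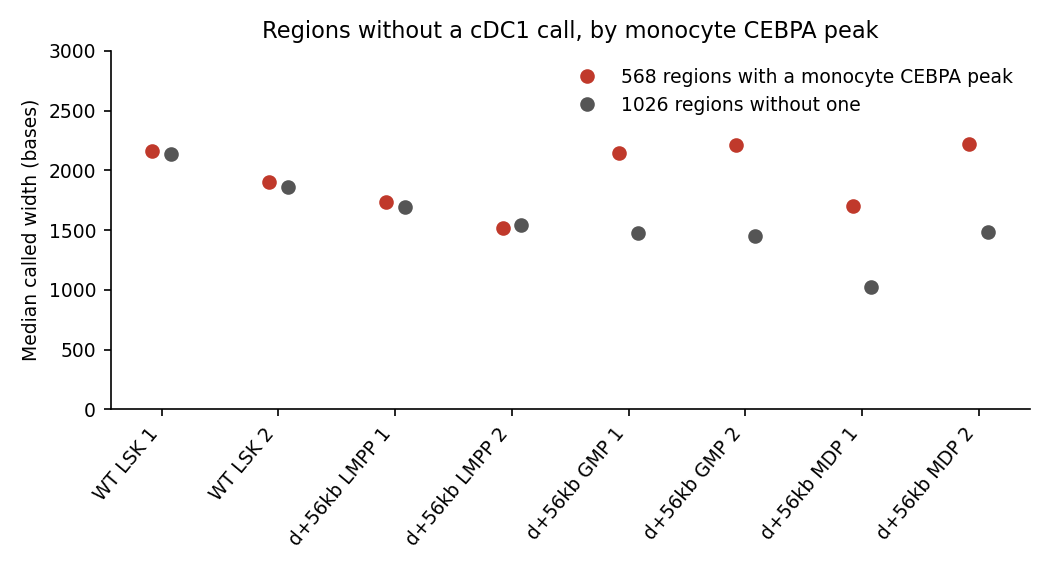
Median called width in bases (y axis) of the 568 regions with and the 1026 regions without a monocyte CEBPA peak in the 8 progenitor libraries used by the rule. The 2 sets lie together in LSK and d+56kb LMPP and apart in GMP (2141 and 2211 against 1479 and 1450.5 bases) and MDP.

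Of 6 regions at neutrophil and granule genes 4 were wider in GMP (background 11.6%) and 0 narrower (background 7.06%) by limma, and of these 4 calls only that at Mpo held in every alternative run. The list had a median difference of 1.22 against 0 over all regions. Cxcr2 and a second Gfi1 region (limma, adjusted p = 0.877) did not pass. The Mpo region (chr11:87787736-87805805) covered 4420 and 3061 bases in LSK, 3023 and 2778 in d+56kb LMPP, 17323 and 18032 in GMP and 14252 and 15156 in MDP. GMP exceeded LMPP by 2.32 ± 0.31 (limma, adjusted p = 0.00088, all GMP values above all LMPP values). The region over Prtn3 and Elane (chr10:79873102-79889081) covered 7106 and 4692 bases in LMPP and 14839 and 14187 in GMP, a difference of 1.16 ± 0.24 (limma, adjusted p = 0.0103). It also took in Plppr3 and held 2 CEBPA peaks, 1 of them overlapping the Elane promoter window. The Ctsg region (chr14:56097303-56108433) covered 2127 and 2383 bases in LMPP and 9456 and 10673 in GMP (1.84 ± 0.51, limma, adjusted p = 0.0392). At Gfi1, a repressor needed for neutrophils, the region over the gene covered 3764 and 2516 bases in LMPP and 7160 and 8287 in GMP (1.101 ± 0.239, limma, adjusted p = 0.0125). At Cxcr2, a chemokine receptor of neutrophils, the region was at the minimum width in both LMPP libraries and 1995 and 2188 in GMP, and missed the threshold (limma, adjusted p = 0.0703). All 4 printed granule gene promoters held GGAAGT, and none held the CEBP letters.

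The Prtn3 and Gfi1 calls were lost without the second LMPP library (limma, adjusted p = 0.0708 and 0.0825), the first GMP library (0.0667 and 0.0502) or the second (0.0513 and 0.0847). The Ctsg call was lost without any 1 of the 4 libraries (limma, adjusted p = 0.106 to 0.164) and with a pseudocount of 100 (0.355).

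Of the 23 regions at stem cell and multipotent progenitor genes 3 were wider in GMP than in LMPP (background 11.6%) and 6 narrower (background 7.06%), and 3 were wider (background 9.63%) and 9 narrower (background 7.17%) in MDP than in LMPP. None of the 3 wider calls in GMP held in every alternative run, and of the 6 narrower only those at Egfl7 and Cd34 did. In MDP the 3 wider calls, and among the narrower those at Kit and at an Lmo2 region, were each lost in some run. At Egfl7, which encodes a vascular and stem cell factor, the region chr2:26569026-26587876 covered 18571 and 18169 bases in LSK, 12885 and 11207 in wild-type LMPP, 18136 and 17584 in d+56kb LMPP, 626 and 1503 in GMP and 3529 and 5138 in MDP. GMP lay below LMPP by -3.65 ± 0.23 (limma, adjusted p = 1.27e-05), and MDP above GMP by 1.74 ± 0.23 (limma, adjusted p = 0.00123). The Cd34 region over the gene, which encodes a stem cell surface sialomucin, covered 9578 and 8001 bases in LMPP and 1934 and 1565 in GMP (-2.10 ± 0.175, limma, adjusted p = 4.86e-05). Hlf, a PAR bZIP factor of stem cells, had 4740 and 4693 bases in LMPP, 2406 and 2706 in GMP and the minimum and 787 in MDP. Its MDP value lay below LMPP by -2.16 ± 0.20 (limma, adjusted p = 0.000115). Regions at Runx1, the blood stem cell regulator, at Myb and at Erg went the other way. The wider Runx1 region covered 5788 and 5224 bases in LMPP and 12397 and 11650 in GMP (0.97 ± 0.20, limma, adjusted p = 0.0102). The Myb region was at the minimum in each LMPP library and covered 2028 and 2577 bases in GMP. A narrower Erg region covered 2294 bases and the minimum in LMPP, 6193 and 6336 in GMP and 4884 and 6769 in MDP. With a pseudocount of 100 the Myb and Erg calls in GMP were lost (limma, adjusted p = 0.195 and 0.205). The Myb call was also lost without any 1 of the 4 libraries. The Erg call was also lost without the second LMPP library, without either GMP library, and when only the 4 libraries were fitted. This Runx1 call was lost without the second LMPP or the first GMP library. The calls at Egfl7, Cd34 against LMPP and Hlf in MDP against LMPP held in each alternative, while Egfl7 in MDP against GMP was lost when only the 4 libraries were fitted.

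**Figure D5:**
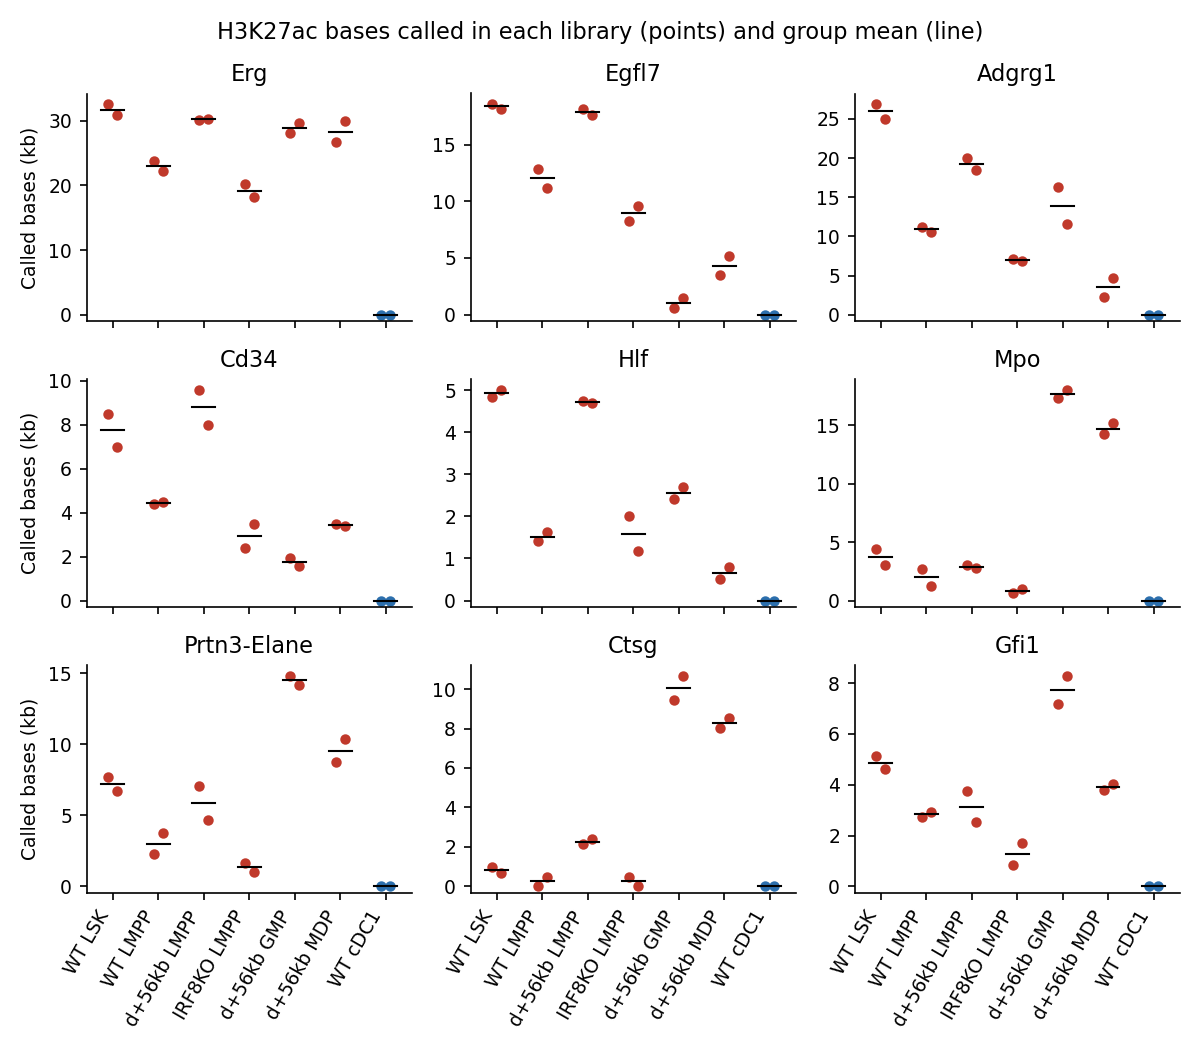
H3K27ac bases called in each library (points, kb on the y axis) and group mean (line) for the widest region at 9 listed genes. Erg stays broad in all progenitor groups, Egfl7, Cd34 and Hlf narrow after LMPP, Mpo, Prtn3-Elane, Ctsg and Gfi1 are highest in GMP, and all are at 0 in cDC1.

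The largest widening in GMP was at Igf1r, the insulin-like growth factor receptor gene, from 642 and 1002 bases in LMPP to 11074 and 10009 in GMP (2.96 ± 0.37, limma, adjusted p = 0.000583). The region held 1 CEBPA peak. Baz1a, a chromatin remodelling subunit gene, went from 1238 and 659 to 8196 and 9057 bases. Of the 8 regions that widened most, those at Igf1r, Baz1a, Foxp1, Mpo, Rbks, Tec and Baz2b held a CEBPA peak and the one at Heg1 did not. Of the 8 that narrowed most, nearest to Egfl7, Tmem121b, Hpn, Smox, Cobll1, Galnt2 and Eri1 and to no gene in 1 case, only the Eri1 region held one. The Foxp1 call was lost without any 1 of the 4 libraries, and the Tec call without the second LMPP or second GMP library. With a pseudocount of 100 the calls at Foxp1, Tec and Rbks were lost (limma, adjusted p = 0.215, 0.0904 and 0.0957).

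The regions of the other 3 printed promoters differed in their course. The Mgst1 region was at the minimum width in each LMPP library and covered 3084 and 3147 in GMP (1.745 ± 0.417, limma, adjusted p = 0.0194), a call lost without any 1 of the 4 libraries and with a pseudocount of 100 (0.138). Clec4e covered 1745 and 766 bases in LMPP and 1600 and 1598 in GMP, with no call (limma, adjusted p = 0.626). The Ptgs2 region was narrow throughout, at 764 bases or less in each of the 8 libraries.

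MDP against d+56kb LMPP gave 85 wider regions (5.33%, background 9.63%) and 157 narrower (9.85%, background 7.17%). Of the kept regions 3.62% were wider and 3.07% narrower. Of the kept regions with a CEBPA peak 7.95% were wider and 3.25% narrower, and of those without one 1.43% and 2.99%. The regions without a cDC1 call showed the same order, so the split was not particular to them. Of these, 58 of 568 with a peak were wider (10.2%) and 32 narrower (5.63%), and without one 27 of 1026 (2.63%) and 125 (12.2%). Without the first MDP library 55 were wider. The Cebpb region at chr2:167740112-167745345, which lies 52296 bases from the gene of this CEBP-family factor, covered 635 bases and the minimum in LMPP and 4282 and 4792 in MDP (2.25 ± 0.43, limma, adjusted p = 0.00709). A pseudocount of 100 ended that call. The Adgrg1 regions narrowed: the widest fell by 2.33 ± 0.20 (limma, adjusted p = 7.44e-05) and its upstream neighbour, from 10599 and 8803 bases to the minimum and 1570, fell by 2.795 ± 0.28 (limma, adjusted p = 0.000171). A Kit region, at the stem cell factor receptor, narrowed from 3199 and 3099 bases to the minimum and 1035, and an Angpt1 region from 2969 and 4185 to 961 and 1351. The Kit call was lost without the first MDP library.

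GMP and MDP differed at few of the regions. Of the kept regions 0.987% were wider in MDP and 0.477% narrower. Of the regions without a cDC1 call, MDP was wider at 24 (1.51%, background 3.19%) and narrower at 36 (2.26%, background 4.8%). Both of these shares were above those of the kept regions, a difference that was not tested. Without scaling the counts were 17 and 53, and a fit on the 4 libraries alone gave 0 of each by limma, where 103 and 155 had an unadjusted p under 0.05. Without the first GMP library 8 were wider and 19 narrower, and without the second 11 and 22. Without the filter on covered libraries the counts were 11 and 12. Hlf was narrower in MDP by -1.315 ± 0.202 (limma, adjusted p = 0.00347), and Cd34 wider by 0.91 ± 0.17 (limma, adjusted p = 0.0126). The first of these calls was lost when only the 4 libraries were fitted, the second there and without the second GMP or first MDP library.

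IRF8KO LMPP against wild-type LMPP used libraries outside the rule. The regions were narrower in IRF8KO at 138 (8.66%) and wider at 27 (1.69%), against backgrounds of 2.94% and 0.746%, and kept regions had 6.25% and 0.624%. The median difference was -0.19 for the 1594 regions, -0.09 for kept regions and 0 for all regions tested. Regions in no LMPP library cannot narrow and make up part of the background, so the share is read beside the kept regions. The IRF8KO libraries had fewer tags than the wild-type ones, and the part of depth in this difference was not tested. Narrower regions had nearly the same share with a CEBPA peak (7.92%) as without (9.06%). With a cDC1 IRF8 peak 18 of 178 were narrower (10.1%), and without one 8.47%.

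The narrower examples named here went from a call to none. The Ccnd3 region, inside the gene of cyclin D3, covered 1010 and 1504 bases in wild-type LMPP, 0 in both IRF8KO libraries and 2095 and 2271 in d+56kb LMPP (-2.21 ± 0.17, limma, adjusted p = 0.000163). Regions at Plec, Arhgef28, Rab37, Rsl24d1, Ptprcap, Elk3, Ppp1r3b and Dtl were likewise at 0 in both IRF8KO libraries. They were named as the 8 most lowered, a ranking that favours regions at 0. A neighbouring Plec region was still covered over 3293 and 3209 bases in IRF8KO, against 5444 and 5483 in wild type. In the other direction the Cebpa region 5644 bases from the gene was at the minimum width in both IRF8KO libraries and 0 in both wild-type ones (1.55 ± 0.18, limma, adjusted p = 0.00144). The Clec4e region covered 643 bases and the minimum in IRF8KO and 0 in wild type (1.67 ± 0.25, limma, adjusted p = 0.00603). Of the 6 regions at neutrophil and granule genes, 0 were called in this comparison by limma, with unadjusted p-values down to 0.0153 at Gfi1.

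The IRF8KO counts depended on the fit. Without scaling 11 regions were wider. Leaving out the first or second wild-type library gave 51 or 47 wider, and leaving out the first or second IRF8KO library gave 73 or 60 wider and 262 or 268 narrower. With only the 4 libraries fitted 0 regions passed in either direction by limma (35 wider and 165 narrower at an unadjusted p under 0.05), and the calls named in the previous paragraph were lost there.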

How the data were processed

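H3K27ac was measured by ChIP-seq in 14 libraries (7 groups of 2), and IRF8 and CEBPA in 8. Reads were mapped and regions called with Bowtie 1.1.2 and HOMER 4.9, per the submitters' processing notes. The deposited lists give region positions in mm10 (GRCm38), with a score column that is constant at 1, so positions and widths were used. H3K27ac regions were called in histone style against input at 4-fold with a peak size of 500 bases, per the file headers. IRF8 peaks were called in factor style without input and CEBPA peaks with input, per the file headers. The narrowest H3K27ac call was just over 500 bases. A region not called is not one without acetylation. Input libraries were not analysed here.

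Regions sharing 1 base or more were merged across the 14 libraries (Python 3.11.15, pandas 2.3.3, numpy 2.4.6), and bases covered by each library's calls were summed per merged region. A factor peak counted when found in both libraries. Genes and starts came from RefSeq (GRCm38.p6). Each region was given to the coding gene whose span lay nearest, within 100000 bases of its midpoint. Widths were compared with limma 3.58.1 (R 4.3.3) on log2(bases + 500) after scaling each library to the mean total covered length of 34.676 Mb, over 40627 regions covered in at least 2 libraries, with all 7 groups in the fit (7 residual degrees of freedom) and an adjusted p threshold of 0.05. The scripts were tested on simulated data. Shares carry 95% Wilson intervals, which cover counting error only. An exact permutation test of 2 against 2 libraries cannot go below p = 0.333.

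The members and lists were chosen with earlier results of these data known. Regions named are the 15 widest, the 10 with the most CEBPA and the 10 with the most IRF8 peaks, the 8 most raised and 8 most lowered called regions of each comparison whose libraries did not overlap, the 5 widest absent from the other LMPP groups, the 20 genes with most regions and the listed genes. Alternatives were other pseudocounts, no scaling, no filter, only the 4 libraries compared, a replicate block, peaks in either library, calls wider than the minimum and leaving out each library.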

Additional observations from a re-analysis of the deposited data

How the results depend on the processing

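Requiring progenitor calls wider than the minimum gave 972 regions, of which 72.5% were called in wild-type LMPP, 50.6% in IRF8KO LMPP and 39.3% held a CEBPA peak. Peaks of either library gave 45.0% for CEBPA, 19.3% for cDC1 IRF8 and 9.66% for monocyte IRF8. Without scaling, 11 regions were wider in IRF8KO. Without the filter on covered libraries, 69 were wider in GMP and 55 in MDP than in LMPP, and 11 were wider and 12 narrower in MDP than in GMP. Fitting only the 4 libraries compared gave 162 wider and 211 narrower in GMP than in LMPP, and by limma 0 in each direction for MDP against GMP (103 and 155 at an unadjusted p under 0.05) and for IRF8KO against wild type (35 and 165). The cause was not tested in any of these.

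Leaving out 1 library gave 1614 to 2635 regions, the highest without the first cDC1 library, and single-library shares of 69.5 to 72.0% in wild-type LMPP, 54.0 to 56.9% in IRF8KO LMPP, 38.9 to 42.0% for CEBPA, 15.1 to 15.7% for cDC1 IRF8 and 6.27 to 8.47% for monocyte IRF8. The counts were 51 to 84 wider and 76 to 89 narrower in GMP than LMPP, 55 to 69 and 106 to 122 in MDP than LMPP, 8 to 24 and 19 to 28 in MDP than GMP, and 47 to 73 and 172 to 268 in IRF8KO than wild type. With a CEBPA peak more regions widened than narrowed, and without one more narrowed, from LMPP to GMP and to MDP in every setting run. Of 100 named calls none reversed, 31 were kept in every setting and 54 in every setting but the 4-library fit. A pseudocount of 100 ended 19 of the calls.

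Same-numbered libraries did not deviate together (21 correlations from -0.047 to 0.027). With the replicate block 98 regions were wider and 128 narrower in GMP than LMPP, 81 and 151 in MDP than LMPP, 22 and 32 in MDP than GMP, and 24 and 134 in IRF8KO than wild type, and 6 of the 100 named calls were lost, among them Ctsg and Foxp1 in GMP against LMPP (limma, adjusted p = 0.0595 and 0.0526). Depth limits calls of narrow regions, and no tag counts per region were used, so a difference in width is not one in signal height.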
